A study of Mus musculus with 2 samples.

Results

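The genes described here are 10 genes of the inflammatory response, measured in white blood cells of infarcted neonatal mouse hearts. They are the interleukin-1 (IL-1) family ligands *Il1a*, *Il1b* and *Il18*, the IL-1 receptor antagonist *Il1rn*, the decoy receptor *Il1r2*, the inflammasome sensors *Nlrp3* and *Mefv*, the inflammasome protease *Casp1*, and the cytokines *Tnf* and *Il6*. These 10 genes were chosen by name from the 32285 genes counted, and all 10 were detected in both libraries.

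IL-1β and IL-18 are made as inactive precursors. An inflammasome, which forms when a sensor such as NLRP3 or pyrin (the product of *Mefv*) is triggered, activates caspase-1, which cuts both precursors and opens the way to their release. IL-1α needs no such cut and acts as an alarm signal from damaged cells, while IL-1RA (the product of *Il1rn*) blocks the signalling IL-1 receptor and IL-1R2 binds IL-1 without signalling. After myocardial infarction (MI) neutrophils, monocytes and macrophages are the usual sources of IL-1β, TNF and IL-6. Cutting and release are not seen in RNA, so the values below describe transcripts.

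Both libraries came from cells of ventricles 7 days after MI at postnatal day 2 (P2), at an age of 9 days, sorted as live CD45+ cells. The WT library held cells of 5 pooled wild-type hearts and the KO library cells of 5 pooled hearts of mice with a global *Lyve1* deletion (*Lyve1-/-*), and both genotypes had MI. The deletion was in all cells, including the lymphatic endothelium, and not only in macrophages. There was no uninjured heart and no second library of either genotype. The mouse strain of these pools was not given in the sources used here.

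Counts are unique molecular identifiers (UMIs), each of which marks 1 captured RNA molecule. The tables held 67968938 UMIs in WT and 61555917 in KO. After the study's limits on genes, UMIs and mitochondrial share, and removal of likely doublets, 4187 WT cells (median 11100 UMIs) and 3391 KO cells (median 12810 UMIs) were kept. Of the kept cells, 3 had a barcode found in both libraries. *Lyve1* was at 550 CPM (counts per 1000000 UMIs) in WT CCR2- macrophage-like cells and 21.5 CPM in KO, as the labels imply. Clusters named from marker lists, without use of the 10 genes, gave 1060 WT and 467 KO CCR2- macrophage-like cells, 191 and 195 CCR2+ macrophage-like, 418 and 453 monocyte-like and 351 and 336 neutrophil-like cells. The monocyte-like cells were 240 and 245 classical and 178 and 208 non-classical. Clusters without a name held 28.1% of WT and 24.0% of KO cells.

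All 10 genes had an annotated start in RefSeq (GRCm38.p6), and 5 promoters are shown, those of *Il1a*, *Il1b*, *Il1rn*, *Tnf* and *Il6*, whose values by cell class the description turns on. Each sequence is the 250 bases before the start on the strand of the gene, 5′ to 3′. Capitals mark matches, on either strand, to the TATA box letters TATAAA, the AP-1 letters TGANTCA or the kappaB letters GGGNNNNNCC.
*Il1a*, chr2:129309973-129310222, minus strand: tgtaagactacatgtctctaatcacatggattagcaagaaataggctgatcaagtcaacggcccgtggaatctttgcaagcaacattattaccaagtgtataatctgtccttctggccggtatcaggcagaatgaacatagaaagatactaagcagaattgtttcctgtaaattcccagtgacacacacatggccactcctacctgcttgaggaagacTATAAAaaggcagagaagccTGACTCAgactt
*Il1b*, chr2:129371140-129371389, minus strand: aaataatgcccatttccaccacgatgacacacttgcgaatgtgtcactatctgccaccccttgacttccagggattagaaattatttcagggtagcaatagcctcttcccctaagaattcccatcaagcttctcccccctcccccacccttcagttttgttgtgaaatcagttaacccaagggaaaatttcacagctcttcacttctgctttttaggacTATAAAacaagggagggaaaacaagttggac
*Il1rn* (first of 3 starts), chr2:24336610-24336859, plus strand: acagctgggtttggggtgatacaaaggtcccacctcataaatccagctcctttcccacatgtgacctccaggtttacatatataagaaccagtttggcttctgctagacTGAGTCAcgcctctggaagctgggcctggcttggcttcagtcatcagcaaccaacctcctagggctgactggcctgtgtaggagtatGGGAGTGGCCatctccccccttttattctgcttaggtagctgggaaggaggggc
*Tnf*, chr17:35202008-35202257, minus strand: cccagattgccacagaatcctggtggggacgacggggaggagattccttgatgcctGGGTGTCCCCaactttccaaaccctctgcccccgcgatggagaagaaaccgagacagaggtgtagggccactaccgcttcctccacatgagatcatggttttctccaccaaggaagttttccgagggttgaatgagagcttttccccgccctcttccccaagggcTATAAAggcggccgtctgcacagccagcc
*Il6*, chr5:30012864-30013113, plus strand: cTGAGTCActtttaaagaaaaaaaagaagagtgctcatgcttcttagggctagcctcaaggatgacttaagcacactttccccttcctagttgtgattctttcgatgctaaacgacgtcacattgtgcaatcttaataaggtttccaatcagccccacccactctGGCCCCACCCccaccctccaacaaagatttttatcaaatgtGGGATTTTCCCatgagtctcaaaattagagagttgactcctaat

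TATAAA lay from -32 to -27 in *Il1a*, from -31 to -26 in *Il1b* and from -29 to -24 in *Tnf*, counting the base before the start as -1. In *Il18* it lay on the other strand, from -175 to -170. Of 32851 promoter windows of this length, 12.4% held TATAAA on either strand, 6.75% held TGANTCA and 45.8% held GGGNNNNNCC. TGANTCA was found in *Il1a* (-12 to -6), in the first *Il1rn* window (-141 to -135) and in *Il6* (starting 249 bases before the start). GGGNNNNNCC was found in 7 of the 13 windows of the 10 genes, which belong to 6 genes. *Il6* had 3 matches, 2 of which overlap, so that a single stretch of capitals covers both. None of the 3 motifs was found in the *Il1r2* window. A match describes the letters and is not a binding site.

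The levels of the genes were first compared across cell classes. A level here is the gene's share of all UMIs summed over the cells of a class in 1 library, in CPM, with an exact Poisson 95% interval. Because each genotype has a single library, the genotypes could not be tested against each other, and the intervals give the error of counting and leave out how hearts vary.

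**Figure D1:**
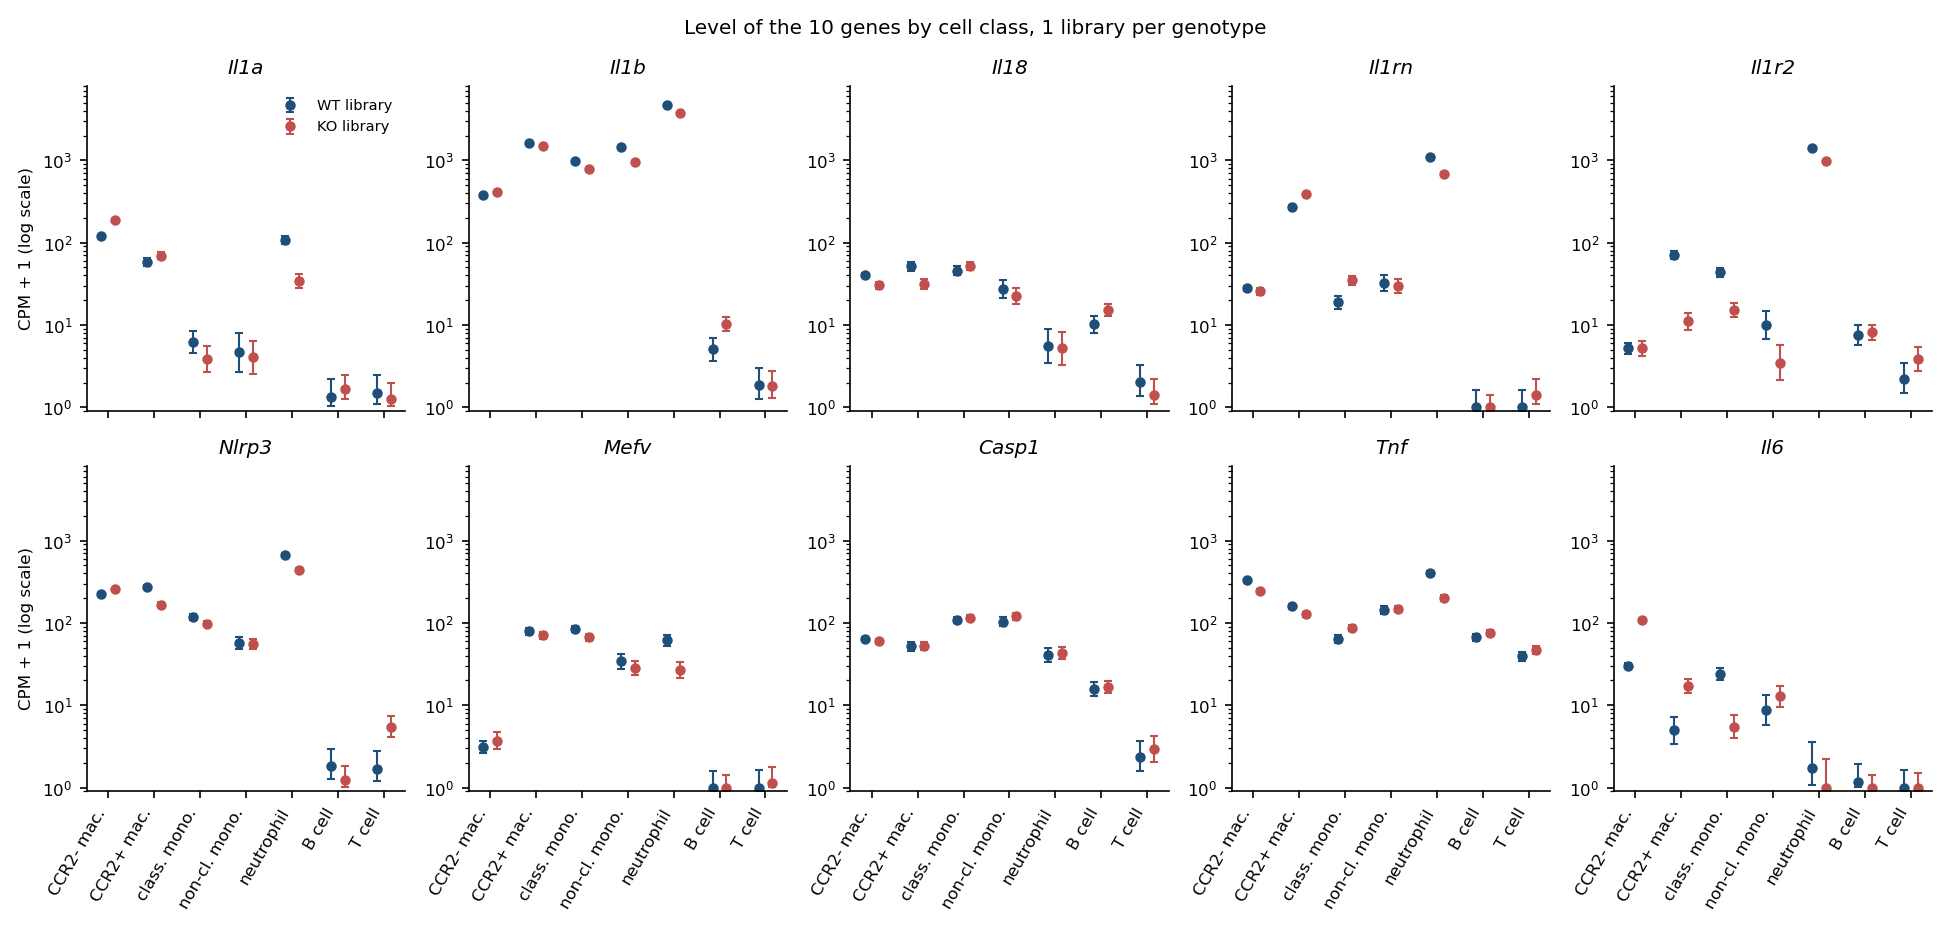
Level of each gene (CPM + 1, log axis) in 7 cell classes, WT in blue and KO in red, 1 summed value per library with its 95% counting interval. *Il1b*, *Il1rn*, *Il1r2* and *Nlrp3* were highest in neutrophil-like cells in both libraries, and *Il1rn* and *Mefv* were at or near 0 in B and T cell-like cells.

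*Il1b*, the main secreted IL-1 of activated myeloid cells, had its highest level in neutrophil-like cells, with 4643 CPM in WT (4564–4723) and 3730 in KO (3662–3800). CCR2+ macrophage-like cells followed with 1645 and 1497 CPM. Next came non-classical monocyte-like cells with 1444 and 945 CPM and classical monocyte-like cells with 993 and 794 CPM. CCR2- macrophage-like cells had the lowest level of these classes, 380 and 413 CPM, and the order was the same in both libraries. No neighbouring classes overlapped in their intervals in either library. B cell-like cells had 4.09 and 9.39 CPM and T cell-like cells 0.859 and 0.819 CPM, both far below the classes above. Of the B cell-like UMIs, 5 cells held 76.0% in WT and 72.6% in KO.

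The UMIs of *Il1b* were spread over several classes. Neutrophil-like cells held 28.5% of all *Il1b* UMIs in WT and 30.7% in KO. CCR2- macrophage-like cells held 22.9% and 15.8%, and CCR2+ macrophage-like cells 17.2% and 24.0%. Over all kept cells *Il1b* was 726 CPM in WT and 645 in KO. The WT levels of each class in the KO mix of classes would give 793 CPM. Within monocyte-like cells *Il1b* was lower in KO, by 0.41 on the log2 scale (0.37 to 0.45) as a ratio after 10 CPM was added to both sides. The KO level was lower in male cells (1226 CPM in WT, 866 in KO) and in female cells (950 and 877), which come from different hearts.

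*Il1a* had a different order. Its level was 119 CPM in WT and 186 in KO in CCR2- macrophage-like cells, which held 80.5% and 79.5% of its UMIs. Neutrophil-like cells had 108 and 33.7 CPM, and CCR2+ macrophage-like cells 57.0 and 68.1 CPM. Monocyte-like cells, with 38 and 29 UMIs in all, had 4.79 and 2.96 CPM. Thus CCR2- macrophage-like and neutrophil-like cells had levels with overlapping intervals in WT and were far apart in KO. CCR2+ macrophage-like cells had lower levels than neutrophil-like cells in WT and higher ones in KO. Both patterns were found in male but not in female cells. Female CCR2- macrophage-like cells had 104.5 CPM in WT and 116 (107–125) in KO. Female neutrophil-like cells had 21.0 CPM (7.71–45.7, from 6 UMIs) and 84.9 CPM (59.2–118, from 35 UMIs). Female CCR2+ macrophage-like cells had 86.2 and 65.1 CPM.

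*Il18*, which is also released after caspase-1 cleavage, was between 29.4 and 50.6 CPM in CCR2-, CCR2+ and monocyte-like cells of both libraries. Neutrophil-like cells had 13 UMIs in each library (4.59 and 4.29 CPM), below B cell-like cells (9.16 and 14.1 CPM). *Il18* in CCR2+ macrophage-like cells was 50.6 CPM in WT and 30.5 in KO. In CCR2- macrophage-like cells it was 39.9 and 29.4 CPM. In both classes the KO level was the lower in male and in female cells.

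*Il1rn*, which encodes the antagonist, was concentrated in neutrophil-like cells, with 1092 CPM in WT and 689 CPM in KO. In the CCR2+ macrophage-like class it was 269 CPM (254–284) in WT and 386 (370–402) in KO. CCR2- macrophage-like and both kinds of monocyte-like cells were between 17.8 and 33.9 CPM, and the gene had 0 UMIs in B cell-like cells of both libraries. The share of *Il1rn* UMIs in neutrophil-like cells was 56.2% in WT and 40.1% in KO, and in CCR2+ macrophage-like cells 23.5% and 43.8%. The class with most *Il1rn* UMIs was thus the neutrophil-like one in WT and the CCR2+ macrophage-like one in KO. This change was found in male but not in female cells. Male neutrophil-like cells held 1811 UMIs in WT and 731 in KO, and male CCR2+ macrophage-like cells 671 and 1144. In female cells the CCR2+ macrophage-like class held more in both libraries, 560 and 946 UMIs against 178 and 412.

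*Il1r2*, the decoy receptor, was found mainly in neutrophil-like cells, which held 76.9% of its UMIs in WT and 78.3% in KO. Its level there was 1400 CPM in WT and 980 in KO. CCR2+ macrophage-like cells had 70.5 and 10.2 CPM and classical monocyte-like cells 42.9 and 14.4 CPM. CCR2- macrophage-like cells, at 4.23 and 4.26 CPM, were below the B cell-like level of 6.54 and 7.16 CPM and above the T cell-like level of 1.20 (0.483–2.48) and 2.87 CPM (1.78–4.38), with intervals that overlapped the T cell-like one in KO (3.25–5.49) but not in WT (3.50–5.07).

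**Figure D2:**
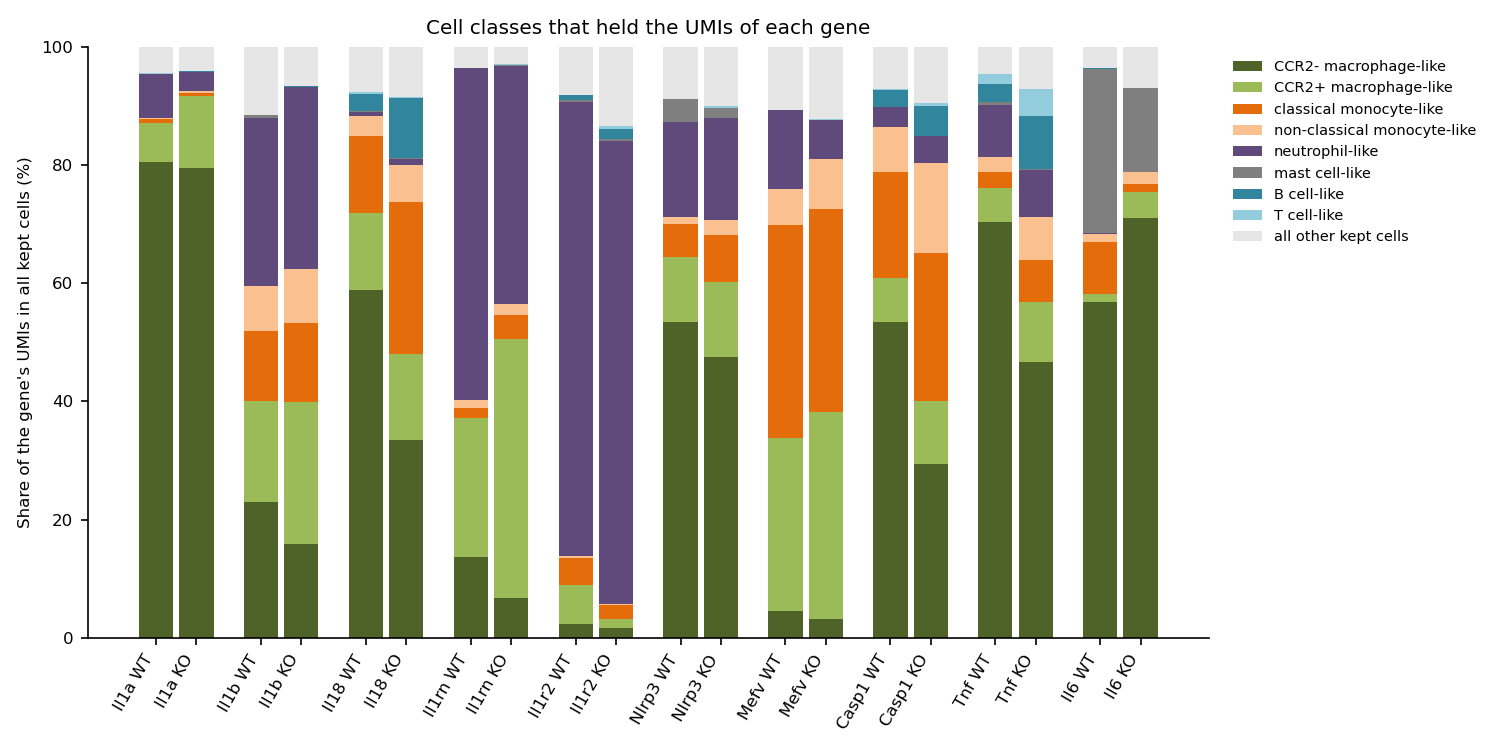
Share of each gene's UMIs (percent of all kept cells of a library) held by each cell class, 1 bar per gene and library. The CCR2- macrophage-like part was smaller in KO than in WT for 9 of the 10 genes and larger for *Il6*, at 56.9% in WT and 71.0% in KO. Over all genes the class held 43.8% of UMIs in WT and 24.7% in KO, so the count of 9 is not particular to these genes.

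The sensors decide which triggers an inflammasome responds to. Among the classes of the plot of levels, *Nlrp3* was highest in neutrophil-like cells (673 CPM in WT, 436 in KO), followed by CCR2+ macrophage-like cells in WT (271 CPM) and CCR2- macrophage-like cells in KO (258 CPM). CCR2- macrophage-like cells had 225 CPM in WT, and CCR2+ macrophage-like cells 166 CPM in KO. So these classes exchanged places between the libraries, beyond their counting intervals in each. Monocyte-like cells had less, 98.9 and 81.6 CPM, and B cell-like cells 0.818 and 0.224 CPM.

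*Mefv*, whose product pyrin senses bacterial toxins that act on the cytoskeleton, was rare in CCR2- macrophage-like cells. CCR2+ macrophage-like cells had 77.9 CPM in WT and 70.0 in KO, and classical monocyte-like cells 83.9 and 65.5 CPM, with overlapping intervals within each library. Neutrophil-like cells had 60.7 and 26.1 CPM. CCR2- macrophage-like cells had 59 UMIs in WT and 38 in KO over 1060 and 467 cells (2.12 and 2.70 CPM), against 0 UMIs in B cell-like cells of both libraries. The 2 sensors thus differed in that the CCR2- macrophage-like cells held 53.4% and 47.5% of *Nlrp3* UMIs but 4.59% and 3.22% of *Mefv* UMIs.

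*Casp1* differed little between the libraries. Monocyte-like cells had 106 and 117 CPM. The level was 63.0 and 59.1 CPM in the CCR2- and 51.0 and 51.4 CPM in the CCR2+ macrophage-like class, and 39.9 and 42.6 CPM in neutrophil-like cells. In these 4 classes its log2 ratio of KO over WT lay between -0.08 and 0.13. B cell-like cells had 14.9 and 15.7 CPM.

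*Tnf*, a cytokine of many white blood cells, was highest in neutrophil-like cells in WT, at 405 CPM. In KO its highest level, 245 CPM, was that of CCR2- macrophage-like cells. CCR2- macrophage-like cells had 333 CPM in WT, and neutrophil-like cells 198 CPM in KO. This exchange was found in female but not in male cells. In male KO cells neutrophil-like cells had 283 CPM (253–316) and CCR2- macrophage-like cells 224 CPM (214–235). In female KO cells the levels were 155 and 279 CPM. B cell-like cells had 66.4 and 74.2 CPM and T cell-like cells 38.5 and 45.7 CPM, found in 27.2% and 32.4% of B cell-like and 21.3% and 25.7% of T cell-like cells, so these classes do not serve as a background for *Tnf*. The share of *Tnf* UMIs in CCR2- macrophage-like cells was 70.4% in WT and 46.7% in KO. Over all kept cells *Tnf* was 207 CPM in WT and 130 in KO. The WT levels in the KO mix of classes would give 161 CPM, so that the mix of classes and the levels within classes both differed.

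*Il6* was held by few cells. In CCR2- macrophage-like cells 48 of 1060 WT cells and 52 of 467 KO cells had a UMI, and the 5 cells with most held 49.6% of the UMIs in WT and 50.6% in KO. In neutrophil-like cells 2 UMIs were found in WT and 0 in KO, where 0 UMIs allow up to 1.22 CPM. The highest level of *Il6* was outside these classes, in mast cell-like cells, with 1259 CPM in WT and 1483 CPM in KO from 29 and 15 cells. Of these cells, 21 in WT and 8 in KO had an *Il6* UMI, and 5 cells held 70.25% of the UMIs in WT and 97.7% in KO.

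The design compares KO with WT within each class. Ratios are log2((KO CPM + 10)/(WT CPM + 10)), and a gene was counted as past the fold when the ratio was at least 1 in size and the class held at least 100 UMIs of it in both libraries together. In CCR2- macrophage-like cells 1 of 9 measured genes was past the fold (*Il6*, higher in KO), against 0.483% of 10978 genes. In CCR2+ macrophage-like cells it was 1 of 10 (*Il1r2*, lower in KO), against 0.466% of 7937. In monocyte-like cells it was 1 of 9 (*Il1r2*, lower in KO), against 0.308% of 8775. In neutrophil-like cells it was 1 of 8 (*Il1a*, lower in KO), against 0.883% of 4755. Counts of 1 gene support no statement about the 10 as a group.

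**Figure D3:**
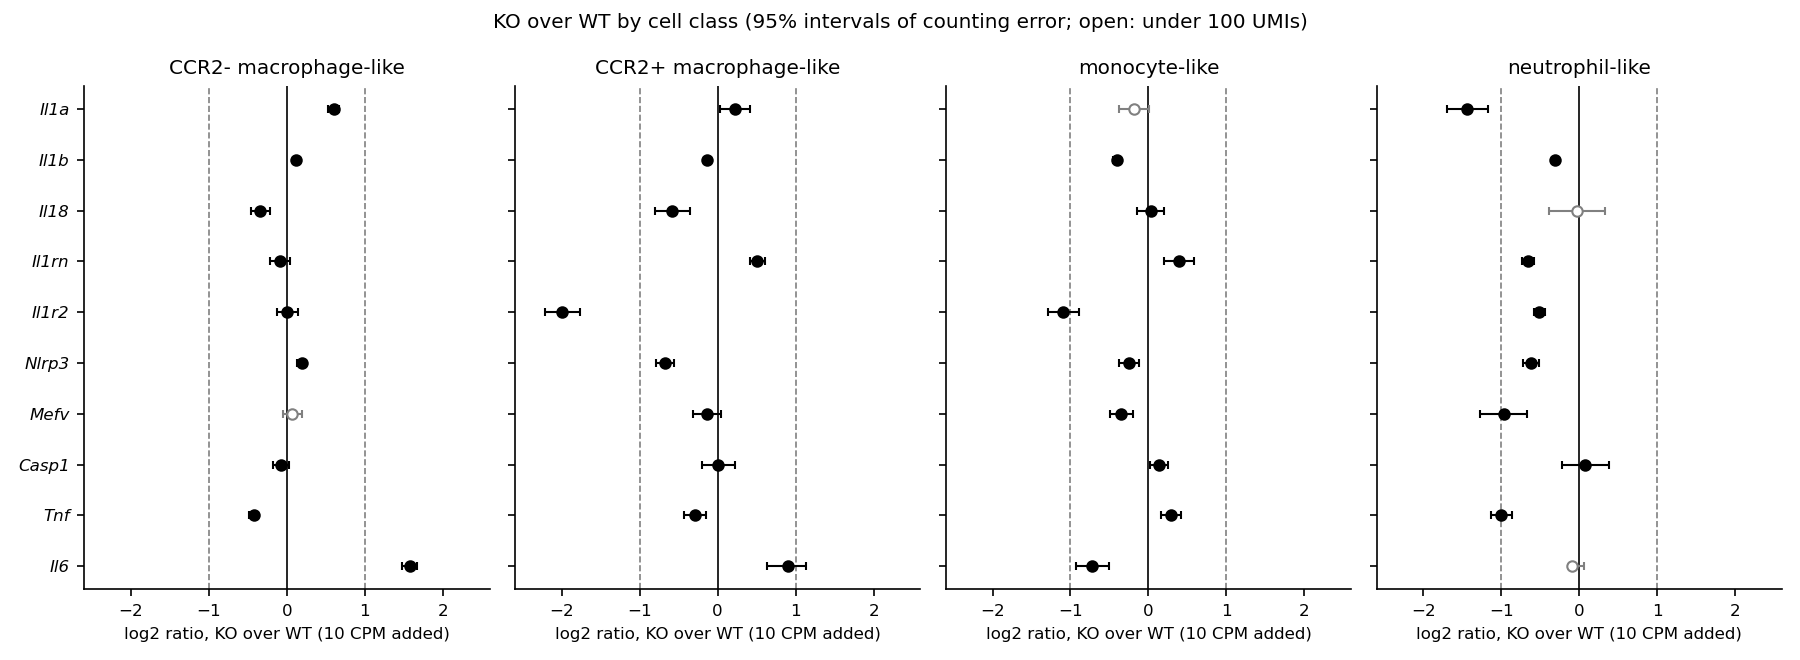
Log2 ratio of KO over WT of each gene in 4 classes, with 95% counting intervals. Open points had under 100 UMIs, and dashed lines mark a ratio of 1 in size. *Il6* in CCR2- macrophage-like cells lies at 1.57, *Il1r2* in CCR2+ macrophage-like and monocyte-like cells at -2.0 and -1.09, and *Il1a* in neutrophil-like cells at -1.43.

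The median ratio of the measured members was 0.00 in CCR2- macrophage-like cells, where the median of all genes was -0.06. It was -0.14 in CCR2+ macrophage-like cells (all genes -0.03) and -0.25 in monocyte-like cells (all genes 0.00). In neutrophil-like cells it was -0.64 (all genes -0.02), with 1 of 8 members above 0, against 47.1% of 4755 genes. Of the 4 classes, the neutrophil-like cells thus had the median farthest from 0. The ratios of all genes were also most spread there. Their median size was 0.17, against 0.11 in CCR2-, 0.12 in CCR2+ macrophage-like and 0.09 in monocyte-like cells.

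Cells with *Xist* and no Y-linked transcript were called female, and cells with a Y-linked transcript and no *Xist* male. Male and female cells of a pool come from different hearts, which gives 2 parts per library, though the hearts behind each part are not known. Both KO parts lay on the same side of both WT parts for 4 of 9 members in CCR2- macrophage-like cells (43.8% of all genes), 6 of 10 in CCR2+ macrophage-like cells (34.8%), 7 of 9 in monocyte-like cells (38.4%) and 5 of 8 in neutrophil-like cells (33.7%). Of 351 WT and 336 KO neutrophil-like cells, 148 and 109 were male and 26 and 35 female, and the rest showed neither kind of transcript or both.

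**Figure D4:**
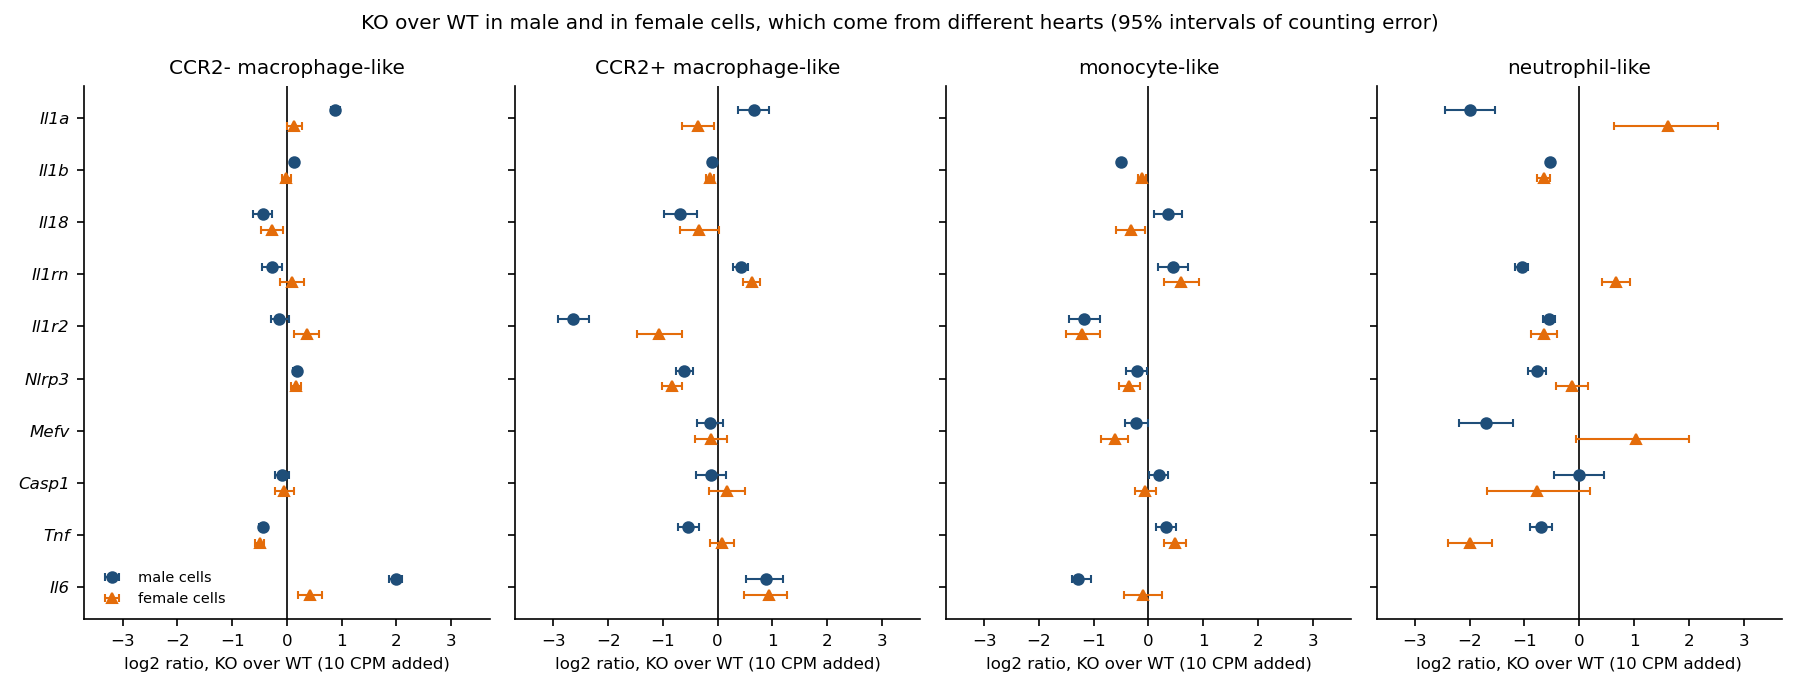
Log2 ratio of KO over WT in male cells (blue circles) and female cells (orange triangles) of 4 classes, with 95% counting intervals, for members with at least 100 UMIs in the class. *Il1r2* lies below 0 in both sexes in 3 classes, and *Il1a*, *Il1rn* and *Mefv* in neutrophil-like cells lie on opposite sides of 0.

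In neutrophil-like cells *Il1a*, the single member past the fold, was lower in KO. *Il1b*, *Il1rn*, *Il1r2*, *Nlrp3*, *Mefv* and *Tnf* had ratios below 0 with intervals that did not reach 0. *Il18* and *Il6* had too few UMIs for a ratio. The log2 ratio was -1.43 for *Il1a* (-1.70 to -1.16), -1.0 for *Tnf* (-1.14 to -0.86) and -0.97 for *Mefv* (-1.27 to -0.66). *Tnf* and *Mefv* thus lay just inside the limit of 1 in size. An *Il1a* UMI was found in 44 of 351 WT and 17 of 336 KO cells. The 5 cells with most held 41.8% of the *Il1a* UMIs in WT and 79.4% in KO. For *Tnf* they held 32.8% and 30.4%. The counting intervals leave out this concentration in few cells. Without the 5 cells with most UMIs in each library the ratio for *Il1a* was -2.11. The ratio was -0.66 for *Il1rn*, -0.62 for *Nlrp3*, -0.51 for *Il1r2* and -0.32 for *Il1b*. *Casp1* was at 0.08 (-0.23 to 0.38).

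Neutrophil-like cells formed 3 clusters. A cluster led by *Il1rn* and *Acod1* (the itaconate-making enzyme of activated myeloid cells) held 79 WT and 41 KO cells, 22.5% and 12.2% of the class, a difference of -10.3 percentage points (-15.9 to -4.65). A cluster led by *Stfa1* and *Stfa2l1* (both encode stefins, protease inhibitors) held 250 and 267 cells. A cluster led by *Camp* and *Ngp*, granule genes of immature neutrophils, held 22 and 28 cells. The *Il1rn* and *Acod1* cluster took the neutrophil name from the nearest list. Of that list, 8 of 12 markers reached the share of cells needed for a name, but 0 were among the cluster's 10 leading genes. The *Stfa1* and *Camp* clusters each had 4 markers of the list among theirs. *Il1rn* took no part in forming the first cluster, because the 10 genes were left out of clustering, but it led the cluster when the genes were ranked afterwards.

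**Figure D5:**
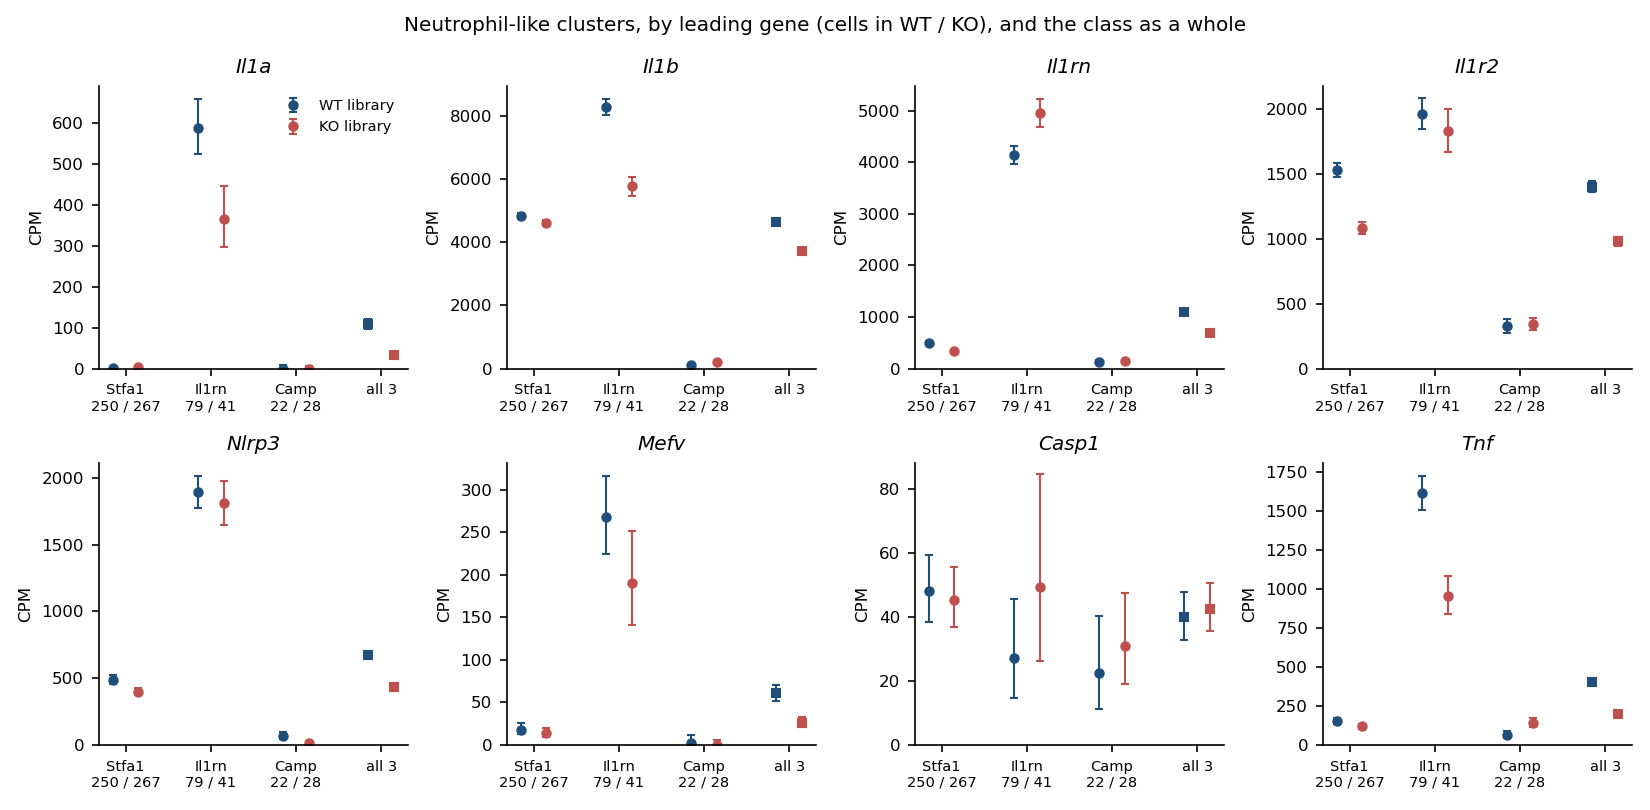
Level (CPM) of 8 genes in the 3 neutrophil-like clusters, named by their leading gene with their cells in WT and KO, and in the class as a whole (squares), with 95% counting intervals. *Il1a*, *Il1rn*, *Nlrp3*, *Mefv* and *Tnf* were highest in the *Il1rn* cluster in both libraries.

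The *Il1rn* and *Acod1* cluster held most transcripts of several members. It held 99.0% of the *Il1a* UMIs of WT neutrophil-like cells and 94.1% in KO. The class value of *Il1a* thus describes mainly this cluster. The cluster held 80.2% and 63.3% of *Mefv*, 72.6% and 41.9% of *Tnf*, and 68.9% and 62.3% of *Il1rn*. For *Nlrp3* the shares were 51.2% and 36.0%, for *Il1b* 32.4% and 13.4%, and for *Il1r2* 25.5% and 16.2%. By comparison, the cluster held 18.2% of all UMIs of the class in WT and 8.67% in KO.

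Within this cluster the levels differed between the libraries for some members and not for others. *Il1b* was 8264 CPM in WT and 5758 in KO, and *Tnf* 1615 and 956 CPM. *Il1a* was 587 CPM (523–657) in WT and 366 (296–446) in KO. *Il1rn* was 4135 and 4951 CPM, higher in KO, while *Il1r2* (1962 and 1828 CPM) and *Nlrp3* (1892 and 1809 CPM) had overlapping intervals. In the larger *Stfa1* cluster, *Il1r2* was 1529 and 1081 CPM and *Il1rn* 492 and 331 CPM, while *Il1b* differed less, at 4829 and 4618 CPM. *Il1a* was nearly absent there, with 1.64 and 2.87 CPM.

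Both the share of the clusters and the levels within them entered the class values. With the KO clusters given the shares of UMIs they had in WT, the log2 ratio in neutrophil-like cells was -0.59 for *Il1a*, -0.54 for *Tnf*, -0.40 for *Mefv*, -0.36 for *Il1r2*, -0.19 for *Il1b* and for *Nlrp3*, and 0.06 for *Il1rn*. Without the *Il1rn* and *Acod1* cluster, 3 UMIs of *Il1a* were left in WT and 6 in KO. The ratio was then -0.10 for *Tnf*, -0.12 for *Il1b*, -0.38 for *Nlrp3*, -0.50 for *Il1r2* and -0.53 for *Il1rn*. No member was past the fold in either case. With no doublet removal the ratio for *Il1a* was -0.95.

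The sexes differed in this class. *Il1a* was 128 CPM in male WT and 24.7 in male KO cells, and 21.0 CPM (6 UMIs) and 84.9 CPM (35 UMIs) in female cells. *Il1rn* was 1395 and 668 CPM in male cells and 623 and 1000 CPM in female cells. *Mefv* had the same pattern, from 85.5 to 19.2 CPM in male cells and from 17.5 to 46.1 in female cells. *Il1b*, *Il1r2*, *Nlrp3* and *Tnf* were lower in KO in both sexes. Other features of the class also moved. The summed level of 9 immature neutrophil genes was 17096 CPM in WT and 21214 in KO, and that of 8 mature genes 15989 and 15777 CPM. The summed level of 10 immediate early and heat shock genes, which respond to tissue digestion among other things, was 9139 and 12161 CPM. Their part in the lower levels of the members was not tested.

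*Il6* was the member with the highest ratio in CCR2- macrophage-like cells, with 29.3 CPM in WT (27.3–31.4) and 107 CPM in KO (102–112), a log2 ratio of 1.57. Nearly all of it lay in a cluster led by *Saa3* and *Prg4*, which encode an acute phase protein and lubricin. The class value of *Il6* thus describes mainly this cluster, which took the CCR2- name from the nearest list. Of that list, 9 of 13 markers were each in at least 25% of its cells, but 0 were among its 10 leading genes. These also included *Marco*, *Alox15* and *Cd5l*. Of the class, 57 of 1060 cells in WT and 51 of 467 in KO were in this cluster, 5.38% and 10.9% of the class, and its cells were deep (medians of 47261 and 55409 UMIs). It held 768 of 817 *Il6* UMIs in WT (94.0%) and 1465 of 1505 in KO (97.3%). An *Il6* UMI was found in 35 of the 57 WT and 33 of the 51 KO cells.

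Within the *Saa3* and *Prg4* cluster *Il6* was 292 CPM in WT (272–314) and 505 in KO (479–531), and its share of the class's UMIs was 9.42% in WT and 20.6% in KO. Without the cluster *Il6* was 1.94 and 3.58 CPM. With the KO clusters weighted as in WT the log2 ratio was 0.61, and as a mean of log-normalized values over cells it was 0.12. In male cells *Il6* was 33.6 CPM in WT and 163 in KO, and in female cells 22.0 and 32.8. After each cell was thinned at random to 10600 UMIs, 3.07% of WT and 8.12% of KO cells had an *Il6* UMI, a difference of 5.05 percentage points (2.48 to 8.15). At that depth 1 of 217 WT and 0 of 314 KO B cell-like cells had one, and the unthinned shares in CCR2- macrophage-like cells were 4.53% and 11.1%.

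*Il1a* shared this cluster. It was 399 CPM in WT and 551 in KO in the *Saa3* and *Prg4* cluster, which held 31.5% and 61.1% of the class's *Il1a* UMIs. Outside the cluster *Il1a* was 90.4 and 91.4 CPM, a log2 ratio of 0.01 (-0.08 to 0.11), against 0.60 (0.53 to 0.67) in the whole class. The ratio was 0.88 in male and 0.14 in female cells. A second cluster with a high *Il1a* level, led by *Cd207* and *Vsig4*, had 414 CPM in WT (72 cells) and 309 CPM in KO (18 cells).

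The other members differed less in CCR2- macrophage-like cells. *Tnf* was lower in KO (log2 ratio -0.43, -0.48 to -0.37), in male (306 and 224 CPM) and in female cells (399 and 279 CPM). It was lower in 6 of the 7 clusters of the class, the exception being the one led by *Ccnb2* (306 and 359 CPM). The share of cells with a *Tnf* UMI did not show this. Once cells were thinned, 68.75% of the WT cells and 68.9% of the KO cells had one. The shares thus lay 0.16 percentage points apart (-5.17 to 5.30), so the lower KO level did not go with fewer cells holding a UMI. *Nlrp3* was higher in KO (0.19, 0.13 to 0.25), in both sexes, but its ratio was 0.07 with the KO clusters weighted as in WT. It was however 468 CPM in WT and 377 CPM in KO in the cluster led by *Ccl8* and *Fcna*, and 177 and 239 CPM in the largest cluster, led by *Fcrls* and *Olfml3*. *Il1b*, at 0.12, was higher in KO in male cells (422 and 460 CPM) and level in female cells (292 and 290 CPM). Summed cardiomyocyte markers were 109 CPM in WT and 81.4 CPM in KO in this class. Of its cells, 190 in WT and 115 in KO came from a first-step cluster led by cardiomyocyte genes. Leaving those cells out was 1 of 16 alternative settings. *Tnf* was lower and *Nlrp3* higher in KO in all 16, with ratios from -0.50 to -0.16 for *Tnf* and from 0.07 to 0.40 for *Nlrp3*. Those of the 16 that change only the minimum of UMIs leave a ratio as it was. The part of cardiomyocyte transcripts in the size of these values was not tested.

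In CCR2+ macrophage-like cells *Il1r2* was lower in KO, by 2.0 on the log2 scale (1.76 to 2.22). A UMI was found in 37 of 191 WT and 18 of 195 KO cells, and 5 cells held 76.8% of the WT UMIs. Without the 5 cells with most UMIs in each library the log2 ratio was -0.92. The shares of cells with a UMI, which do not weigh single cells, were 14.4% and 6.29% after thinning, a difference of -8.09 percentage points (-14.9 to -1.57). At the same depth they were 5.53% and 5.73% in B cell-like cells and 0.541% and 0.673% in T cell-like cells. The interval of the KO share of 6.29% had a lower bound of 3.18%, under the B cell-like share and above the T cell-like one. The level was lower in KO in male (92.3 and 6.34 CPM) and in female cells (39.0 and 13.2 CPM). Summed neutrophil markers, which include none of the 10 genes, were 151 CPM in WT and 119 CPM in KO in this class, with 3 of 12 at 0 in WT and 2 in KO. Their part in the *Il1r2* difference was not tested.

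*Il1r2* differed in the same direction in monocyte-like cells, with 32.5 CPM in WT and 9.99 CPM in KO. It was found in 71 of 418 WT and 38 of 453 KO cells, and after thinning in 13.6% and 4.28%, a difference of -9.35 percentage points (-13.7 to -5.34). Male cells had 34.2 and 9.61 CPM and female cells 34.7 and 9.32 CPM, so the sexes had close levels in each library. Summed neutrophil markers were also lower in KO, 1788 and 1048 CPM in classical and 730 and 330 CPM in non-classical monocyte-like cells, and their part was not tested. The *Il1r2* level was thus lower in KO in CCR2+ macrophage-like, monocyte-like and neutrophil-like cells. With no doublet removal the ratio in monocyte-like cells was -0.88.

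*Il1rn*, in contrast, was higher in KO in CCR2+ macrophage-like cells (log2 ratio 0.51, 0.41 to 0.60) and in monocyte-like cells (0.40, 0.20 to 0.59), in male and in female cells of both classes. The ratio in monocyte-like cells was 0.02 when unnamed clusters of low depth were counted with the class of the nearest list. In CCR2+ macrophage-like cells 46.3% of WT and 60.6% of KO cells had a UMI after thinning, a difference of 14.3 percentage points (3.63 to 24.6). In classical monocyte-like cells the level was 17.8 CPM in WT and 33.9 in KO, and in non-classical ones 31.4 and 28.8 CPM with overlapping intervals. Of the UMIs in the classical cells, 5 cells held 29.6% in WT and 45.2% in KO. The antagonist and the decoy receptor thus differed in opposite directions in CCR2+ macrophage-like cells and in classical monocyte-like cells.

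The ratios of the other members of the CCR2+ macrophage-like class lay on both sides of 0. *Nlrp3* was at -0.67 (-0.79 to -0.56) and *Il18* at -0.58 (-0.80 to -0.36), each lower in KO in both sexes. *Tnf* was at -0.29, lower in male cells (163 and 109 CPM) but not in female cells (149 and 158 CPM). *Il1b*, at -0.14, and *Mefv*, at -0.14, differed little, and *Casp1* was at 0.01. *Il1a*, at 0.22 (0.03 to 0.42), was higher in KO in male cells (34.9 and 60.8 CPM) and lower in female cells (86.2 and 65.1 CPM). With clustering in scanpy without integration its ratio was -0.38. *Il6*, at 0.90, had 19 UMIs in 10 WT cells and 95 UMIs in 14 KO cells.

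In monocyte-like cells *Il6* was 18.4 CPM in WT and 7.24 in KO, held by 26 and 16 cells. In classical monocyte-like cells it was 23.1 and 4.52 CPM, and in non-classical ones 7.84 and 11.9 CPM. Male cells held 66 UMIs in WT and 4 in KO, and female cells 53 and 67. In the classical cells the KO level was lower in both sexes, 25.9 and 0.976 CPM in male and 22.3 and 9.92 CPM in female cells. Of the 43 KO UMIs in non-classical cells, 40 were in 1 cell. *Mefv* was lower in KO (-0.35, -0.50 to -0.20) and *Tnf* higher (0.29, 0.16 to 0.41), in both sexes. In classical cells *Mefv* was at -0.31 (-0.49 to -0.14) and *Tnf* at 0.40 (0.22 to 0.57). In non-classical cells both intervals included 0, with *Mefv* at -0.19 (-0.52 to 0.14) and *Tnf* at 0.05 (-0.14 to 0.23). Of the *Tnf* UMIs in classical cells, 5 cells held 19.1% in WT and 36.3% in KO. *Il1b* was lower in classical (-0.32) and in non-classical monocyte-like cells (-0.61). In the classical cells it was lower in both sexes. In the non-classical cells it was lower in male cells (1574 CPM in WT, 858 in KO) but not in female cells (953 and 1067 CPM).

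Across CCR2- macrophage-like cells, *Il1b* transcripts went with those of some other members. After thinning, *Nlrp3* was detected in 74.8% (69.9–79.3) of WT CCR2- macrophage-like cells with an *Il1b* UMI and in 44.1% (40.1–48.0) of those without one. The KO shares were 75.3% and 50.2%. *Il1a* was detected in 44.1% and 15.1% of the same WT cells and in 46.6% and 22.1% in KO. *Casp1* showed no such link, with 47.2% and 46.1% in WT and 45.5% and 45.8% in KO, and neither did *Il18*, with 30.4% and 32.8% in WT. The *Nlrp3* difference was found in other classes as well. *Nlrp3* was detected in 74.8% of WT CCR2+ macrophage-like cells with an *Il1b* UMI and in 48.8% without one (64.4% and 37.2% in KO). In monocyte-like cells these shares were 40.4% and 36.4% in WT and 47.0% and 29.3% in KO. Clusters within a class differ in these genes, so such shares describe the class and not pairs of genes within 1 kind of cell.

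Over 29 clusters in 2 libraries (58 profiles of log2(CPM + 10), which share libraries and differ in depth), the members most alike were *Il1b* and *Nlrp3* (r = 0.83) and *Il1b* and *Casp1* (r = 0.81). The least alike were *Il1r2* and *Il6* (r = -0.08). Among 10834 other genes, those most like *Il1b* were *Cd300a*, *Csf2ra* and *Alox5ap* (r between 0.92 and 0.94). Those most like *Il1a* were *Adgb*, *Gm17749* and *Fam20c*, and those most like *Il18* were *Gusb*, *Ifi207* and *P2ry6*. *Tarm1*, *Arg2* and *Alas1* were most like *Il1rn*, and *Cxcr2*, *Rab44* and *Csta3* were most like *Il1r2*. *Rab20*, *Lilr4b* and *Lilrb4a* were most like *Nlrp3*, *Gpr35*, *Sirpb1c* and *F10* most like *Mefv*, and *Lrrc25*, *Sat1* and *Cd300a* most like *Casp1*. *Clec4n*, *Gpr84* and *C5ar1* were most like *Tnf* with lower values (r between 0.76 and 0.78), and *Car6*, *Prg4* and *Selp* were most like *Il6*.

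The pathway around the 10 genes was described from lists of ligands, receptors, sensors, adaptors and signalling genes. These lists, like the members, were chosen with earlier results of these data known. Besides the members they hold 84 genes. Of these, 0 of 62 measured were past the fold in CCR2- macrophage-like cells and 0 of 59 in monocyte-like cells. It was 1 of 56 in CCR2+ macrophage-like, 1 of 45 in neutrophil-like and 1 of 52 in non-classical monocyte-like cells, where 0.466%, 0.883% and 0.5% of all genes were. *Tnfaip3*, a feedback inhibitor of NF-κB, was 247 CPM in WT and 108 in KO in neutrophil-like cells. *Il10*, an anti-inflammatory cytokine, was 21.8 CPM (105 UMIs) in WT and 1.02 (6 UMIs) in KO in CCR2+ macrophage-like cells. *Clcf1*, of the IL-6 family, was 39.6 and 14.4 CPM in non-classical monocyte-like cells. In classical monocyte-like cells the members *Il1r2* and *Il6* were past the fold, as were 0.326% of 7968 genes, and 0 of 54 other list genes.

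In neutrophil-like cells, 13 of 15 genes of IL-1 receptor signalling were measured, with 4 above 0 and a median log2 ratio of -0.48. Over all genes 47.1% were above 0 and the median was -0.02. *Nfkbia*, an inhibitor and target of NF-κB, was 2281 CPM in WT and 1222 in KO, and *Nfkbiz*, a nuclear co-regulator of NF-κB targets, 813 and 520 CPM. Of the receptors, *Il1rap*, the shared signalling chain of the IL-1 receptor, was 229 and 178 CPM, and *Tnfrsf1b*, a TNF receptor, 408 and 221 CPM. The gene of the signalling IL-1 receptor, *Il1r1*, had 0 UMIs in neutrophil-like cells of both libraries, and 37 WT and 39 KO UMIs in CCR2- macrophage-like cells. The medians of the IL-1 receptor signalling list were close to 0 in macrophage-like cells, -0.04 in CCR2- and -0.06 in CCR2+ macrophage-like cells.

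Other parts of the inflammasome differed little. Of 9 genes for adaptors, caspases and pores measured in neutrophil-like cells, 4 were above 0 (all genes 47.1%) and none was past the fold, with a median of -0.01. In CCR2- macrophage-like cells 11 were measured, 4 were above 0 (all genes 31.8%) and the median was -0.08. *Ninj1*, which ruptures the membrane of dying cells, was 418 CPM in WT and 303 in KO in neutrophil-like cells. *Txnip*, which binds NLRP3, was 742 and 676 CPM there. The sensor *Aim2* was 157 and 162 CPM in monocyte-like cells. The IL-6 signalling genes *Jak1* (425 and 442 CPM) and *Stat3* (336 and 364 CPM) were close in neutrophil-like cells. Of other cytokines, *Tgfb1* was 326 and 317 CPM and *Tnfsf9* 101 and 77.1 CPM in CCR2- macrophage-like cells.

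Markers of other cells also passed the fold in some classes. *Lcn2*, a neutrophil granule gene, was 90.7 CPM in WT and 11.1 in KO in classical monocyte-like cells. *Chil3* was 1.33 CPM in WT and 216 in KO in the CCR2- class, against 339 and 115 CPM in the CCR2+ class, where *Mmp9* was 29.4 and 2.71 CPM. *Mki67*, a proliferation gene, was 82.3 CPM in WT and 25.8 in KO in the CCR2+ macrophage-like class, and 7.41 and 49.9 CPM in neutrophil-like cells. In neutrophil-like cells *Fos* was 1461 and 2148 CPM, *Junb* 2717 and 4013 CPM, *Camp* 3990 and 4679 CPM and *Ngp* 7448 and 9912 CPM, while *Retnlg* (7460 and 7017 CPM) and *Selplg* (593 and 612 CPM), of mature neutrophils, were close.

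The genes lie on 7 chromosomes (GRCm38). *Il1a* (ENSMUSG00000027399), *Il1b* (ENSMUSG00000027398) and *Il1rn* (ENSMUSG00000026981) are on chromosome 2, at 129299610 to 129309972, 129364570 to 129371139 and 24336853 to 24351494. *Il1r2* (ENSMUSG00000026073) is on chromosome 1 from 40074079 to 40125231, and *Il6* (ENSMUSG00000025746) on chromosome 5 from 30013114 to 30019981. *Casp1* (ENSMUSG00000025888) and *Il18* (ENSMUSG00000039217) are on chromosome 9, from 5298517 to 5307265 and from 50554827 to 50581840. *Nlrp3* (ENSMUSG00000032691) is on chromosome 11 from 59541568 to 59566956, *Mefv* (ENSMUSG00000022534) on chromosome 16 from 3707218 to 3718097, and *Tnf* (ENSMUSG00000024401) on chromosome 17 from 35199381 to 35202007. Of the 10 genes, 4 overlap another gene. *Il1b* overlaps the antisense gene *Il1bos*, which had 247 UMIs beside 86577 of *Il1b*, and *Il1a* overlaps *Gm14023*, with 577 UMIs beside 7736. *Il18* and *Il1r2* overlap genes with 559 and 141 UMIs beside 3250 and 9265.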

How the data were processed

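Live CD45+ cells from 5 pooled WT and 5 pooled *Lyve1* KO hearts gave 1 library each. The authors counted UMIs per gene and cell with Cell Ranger (8.0.1 in the submitters' processing notes) on mm10/GRCm38 and deposited these raw counts for 32285 genes, neither filtered nor normalized beyond the calling of cells. Their assignment of cells to hearts needs the reads and was not repeated.

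The study's limits of 500 genes (minimum), 250 UMIs (minimum) and 30% mitochondrial UMIs (maximum) left 4285 WT and 3464 KO barcodes. The automatic call of scrublet (scanpy 1.11.5) marked 1 WT and 4 KO barcodes, so it was not used, and the 98 and 73 highest scores were left out, the number given by a doublet rate of 0.4% per 1000 barcodes. Kept cells held 63611506 and 57055738 UMIs. Seurat 5.3.0 in R 4.3.3 integrated and clustered the cells without the 10 genes, *Lyve1*, the genes of the pathway lists and sex-linked genes, in 2 steps, the second on macrophage-like and monocyte-like clusters. Each name needed at least 3 markers of a list, each in at least 25% of cells, and the scoring was set after the data were seen. Because the classes were named anew, they can differ from the subsets of the study.

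UMIs were summed per class and library. No p-value was computed, because cells of 1 library are not replicates. Intervals are exact Poisson for CPM, conditional binomial for ratios, Clopper-Pearson for shares and Newcombe for differences of shares, at 95%. The computation of the ratios was checked on simulated Poisson counts. These leave out the concentration of UMIs in few cells and how hearts vary, so they do not show how reliable the ratios are. Shares of cells with a UMI used cells thinned to 10600 UMIs, leaving out shallower ones (only 39 WT and 59 KO neutrophil-like cells were deep enough). Named genes are the 10 genes, *Lyve1*, the 2 genes of each list with most UMIs, list genes past the fold, the 3 genes with the most similar profile and leading genes of clusters. The 10 genes and the lists were chosen with earlier results of these data known. Alternatives changed the added CPM, the minimum of UMIs, the cell limits, doublet removal, the clustering tool, the sexes and the cells or clusters included. Python 3.11.15 with scipy 1.17.1 was used.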

Additional observations from a re-analysis of the deposited data

Results flagged for a closer look

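Ratios of KO over WT that lay in opposite directions in 2 classes are given here where each was at least 0.5 in size on the log2 scale. This held for 3 members, *Il1a*, *Il1rn* and *Il6*, while *Nlrp3*, *Tnf* and *Il1b* also differed in sign between classes with 1 or both ratios under that size. With 1 library per genotype none of these differences was tested. *Il1a* was at 0.60 on the log2 scale in CCR2- macrophage-like cells and at -1.43 in neutrophil-like cells. *Il1rn* was at 0.51 in CCR2+ macrophage-like cells and at -0.66 in neutrophil-like cells. *Il6* was at 1.57 in CCR2- and at 0.90 in CCR2+ macrophage-like cells, and at -0.72 in monocyte-like cells, where its UMIs were held by 26 WT and 16 KO cells.

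In neutrophil-like cells the ratio had opposite directions in the sexes for *Il1a*, *Il1rn* and *Mefv*, which was also not tested. *Il1a* was at -1.99 in male and at 1.61 in female cells, and *Il1rn* at -1.05 in male and at 0.67 in female cells. The female part held 26 WT and 35 KO cells and 6 and 35 UMIs of *Il1a*. *Mefv* was at -1.71 in male and at 1.03 (-0.06 to 2.0) in female cells, from 5 and 19 UMIs in the latter.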

How the results depend on the processing

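Of 495 ratios of the members under alternative settings, 370 stayed within their counting error, 125 moved by more, and 0 of those past the fold changed sign. Smaller ratios were left out of that count of 0, and some of them did change sign. *Il1rn* kept its sign in 8 of 16 settings in CCR2- macrophage-like cells and in 13 of 15 in neutrophil-like cells. *Il1a* in CCR2+ macrophage-like cells did so in 10 of 13, while other ratios kept theirs in all settings. The 370 include ratios under a lower or no minimum of UMIs. Those settings change which genes have a ratio and leave the ratio itself as it was, so they say nothing about stability. The female part of the neutrophil-like cells had too few UMIs of *Il1a* for such a ratio. The cause of each change was not tested unless the setting itself gives it.

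The count of members past the fold was 1 in each of the 4 classes. With 1 CPM added in place of 10 it was 2 in CCR2+ macrophage-like, 2 in monocyte-like and 3 in neutrophil-like cells. As means over cells of log-normalized values, which limit the weight of single cells, it was 0 in all 4 classes. Without the 5 cells with most UMIs it was 0 in CCR2+ macrophage-like and 2 in neutrophil-like cells. Female cells alone gave 0 in CCR2- macrophage-like cells, and male cells alone 3 in neutrophil-like cells. Stricter cell limits (1000 genes, 10% mitochondrial UMIs) gave 3 and clustering in scanpy without integration gave 2 in neutrophil-like cells, and no doublet removal gave 0 in monocyte-like cells. Of the settings added after the data were seen, leaving out the *Saa3* and *Prg4* cluster or weighting KO clusters as in WT gave 0 in CCR2- macrophage-like cells, and leaving out the *Il1rn* and *Acod1* cluster or the same weighting gave 0 in neutrophil-like cells.

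The share of *Il1b* UMIs in neutrophil-like cells, 28.5% in WT and 30.7% in KO, was 19.2% and 26.6% without the *Il1rn* and *Acod1* cluster. It was 22.5% and 20.1% in male cells and 10.0% and 9.36% in female cells. The sexes leave out cells with neither or both kinds of transcript, so both shares can lie below the whole. Of the 13155 WT and 11294 KO *Il1b* UMIs of neutrophil-like cells, male cells held 5795 and 3370 and female cells 1124 and 1034. Of the 46199 and 36787 in all kept cells, male cells held 25703 and 16748 and female cells 11233 and 11047. No paired analysis was possible because each genotype has 1 library, and for the same reason no replicate could be left out.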

Other observations

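Classes outside macrophages, monocytes and neutrophils held some members at high levels. Mast cell-like cells (29 in WT and 15 in KO) had 1417 CPM of *Nlrp3* in WT and 638 CPM in KO, above the neutrophil-like level in both libraries, and held 27.8% of all *Il6* UMIs in WT and 14.2% in KO. An *Nlrp3* UMI was found in 18 WT and 6 KO cells, and 5 cells held 48.7% of the UMIs in WT and 98.4% in KO. The leading genes of this cluster included *Mcpt8* and *Cd200r3*, which are on the basophil marker list. *Il1b* had 228 UMIs in 4 of the WT mast cell-like cells and 0 UMIs in KO. ILC2-like cells had 2 UMIs of *Il1r2* in WT and 247 in KO, the latter in 4 of 55 cells.

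Clusters without a name also held *Il1b*. A cluster led by *Siglech* and *Cd7* (51 WT and 43 KO cells) had 1831 CPM of *Il1b* in WT and 726 CPM in KO. A cluster led by *Cxcl9* and *Ccl22* held 15 WT and 0 KO cells, with 238 UMIs of *Il1b* (2095 CPM) and 81 of *Il1rn* (713 CPM) in WT.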
